A study of Mus musculus with 6 samples.

Results

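The genes described here are 8 mouse genes of DNA methylation and clonal hematopoiesis. Dnmt1, Dnmt3a, Dnmt3b, Tet1, Tet2 and Tet3 encode enzymes that write DNA methylation or oxidize it. Asxl1 belongs with the genes recurrently mutated in clonal hematopoiesis, and Asxl2 is its paralog. All 8 were chosen by name. For each one, every segment of a chromatin-state map of hematopoietic stem cells (HSCs) that overlapped the mm10 gene record or the 20 kb on either side was taken. This gave 504 of the 850831 segments in the map, over windows that sum to 925 kb, or 0.0339% of the 2727 Mb mapped. The number of segments per gene ran from 41 for Dnmt3b to 80 for Dnmt3a and for Tet3.

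The study profiled the histone variant H3.3 by ChIP-seq in HSCs from adult bone marrow of C57BL/6 mice, either wild type or deleted for Hira in blood-forming cells by an inducible knockout. HIRA is a chaperone that deposits H3.3 outside DNA replication. The treatment is given for every sample, wild type included: poly(I:C), injected intraperitoneally in 2 doses of 20 ug, with cells collected 7 days after the earlier dose. The Cre driver is not named in the labels. There were 2 wild-type and 2 HIRA knockout H3.3 libraries, with 1 input library for each genotype. The values below all come from 1 segmentation, which is labelled as wild-type HSC H3.3, so there is no replicate spread, no test and no comparison with the knockout. The map assigns each 200 bp bin to 1 of 18 states. Only numbers identify the states, and the marks that define them are not known here, so states are described only by where they lie.

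DNA methyltransferases add a methyl group to cytosine, mostly where cytosine is followed by guanine (CpG). DNMT1 copies the methylation pattern to the new strand after replication, whereas DNMT3A and DNMT3B methylate sites that were unmethylated. The TET enzymes oxidize methylcytosine, a step towards its removal, and the ASXL proteins are scaffold partners of the BAP1 deubiquitinase, which acts on ubiquitinated histone H2A. Mutations of DNMT3A, TET2 and ASXL1 are among the most frequent in human clonal hematopoiesis, in which 1 mutated stem cell contributes an expanded share of blood cells. CpG-rich promoters of active genes are usually unmethylated.

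A group of 4 states, 3 to 6, holds many of the gene ends in this map and is used below to describe promoters. Of the 8 genes, 6 had an end of the gene record in one of these states, where the background over 21779 protein-coding genes was 47.6% and that over the 4137 genes of similar record length (38.3 to 113 kb) was 58.1%. By RefSeq transcription starts, all 8 genes had at least 1 start in states 3 to 6, against 51.6% of all protein-coding genes with a listed start and 66.1% of those of similar length. Of the 12 starts listed for the 8 genes, 11 lay in these states, against 50.3% of all protein-coding starts. The exception was the most upstream start of Dnmt1.

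The promoters that carry the main contrasts are shown here, each from 250 bases before to 50 after the start, with CpG dinucleotides in capitals (RefSeq, GRCm38.p6). They are the Dnmt1 pair, in which 1 start lay outside states 3 to 6 and the other inside; the Dnmt3a pair, which lay in separate runs of these states; and the promoters of Tet2, Asxl1 and Asxl2, which differed most in CpG number or in state. The Dnmt1 promoters lie on the minus strand at chr9:20959839-20960138 (upstream) and chr9:20952574-20952873 (downstream). The Dnmt3a promoters lie on the plus strand at chr12:3806910-3807209 (5′) and chr12:3891494-3891793 (internal). Tet2 lies on the minus strand at chr3:133544341-133544640, Asxl1 on the plus strand at chr2:153345580-153345879, and Asxl2 on the plus strand at chr12:3426607-3426906.
Dnmt1 upstream: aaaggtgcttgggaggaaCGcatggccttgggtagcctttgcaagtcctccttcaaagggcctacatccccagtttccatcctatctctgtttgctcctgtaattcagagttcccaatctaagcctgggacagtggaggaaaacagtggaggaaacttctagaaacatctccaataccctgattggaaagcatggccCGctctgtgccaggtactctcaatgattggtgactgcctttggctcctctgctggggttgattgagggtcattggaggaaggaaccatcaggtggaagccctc
Dnmt1 downstream: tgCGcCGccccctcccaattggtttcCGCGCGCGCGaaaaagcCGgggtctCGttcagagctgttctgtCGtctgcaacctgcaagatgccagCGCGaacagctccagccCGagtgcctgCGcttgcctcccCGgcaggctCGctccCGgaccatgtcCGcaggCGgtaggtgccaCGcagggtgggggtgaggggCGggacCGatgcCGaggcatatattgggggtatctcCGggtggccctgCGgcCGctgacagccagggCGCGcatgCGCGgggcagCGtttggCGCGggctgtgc
Dnmt3a 5′: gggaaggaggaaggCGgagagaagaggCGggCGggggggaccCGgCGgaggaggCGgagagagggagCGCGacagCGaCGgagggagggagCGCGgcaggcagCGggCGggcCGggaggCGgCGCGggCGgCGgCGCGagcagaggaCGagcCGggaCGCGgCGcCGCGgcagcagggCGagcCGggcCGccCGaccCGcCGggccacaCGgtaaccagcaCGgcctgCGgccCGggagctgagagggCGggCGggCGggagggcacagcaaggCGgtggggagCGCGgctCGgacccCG
Dnmt3a internal: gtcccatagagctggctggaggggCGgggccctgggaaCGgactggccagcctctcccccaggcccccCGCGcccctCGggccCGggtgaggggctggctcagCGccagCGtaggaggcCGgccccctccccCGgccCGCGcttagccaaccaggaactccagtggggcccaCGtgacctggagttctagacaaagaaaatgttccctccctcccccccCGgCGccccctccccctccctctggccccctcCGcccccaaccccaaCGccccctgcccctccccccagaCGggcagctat
Tet2: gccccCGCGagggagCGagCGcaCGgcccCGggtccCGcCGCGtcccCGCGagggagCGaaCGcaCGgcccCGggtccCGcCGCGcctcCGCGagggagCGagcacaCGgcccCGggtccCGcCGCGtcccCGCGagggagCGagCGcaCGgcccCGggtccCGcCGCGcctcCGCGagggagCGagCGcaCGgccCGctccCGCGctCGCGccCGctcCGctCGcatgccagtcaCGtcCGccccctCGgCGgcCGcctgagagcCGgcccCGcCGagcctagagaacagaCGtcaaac
Asxl1: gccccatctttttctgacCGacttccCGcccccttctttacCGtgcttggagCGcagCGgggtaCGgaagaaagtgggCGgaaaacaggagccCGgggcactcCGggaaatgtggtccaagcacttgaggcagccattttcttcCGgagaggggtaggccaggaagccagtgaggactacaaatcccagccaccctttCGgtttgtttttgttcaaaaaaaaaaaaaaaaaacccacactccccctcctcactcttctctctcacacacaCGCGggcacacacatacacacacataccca
Asxl2: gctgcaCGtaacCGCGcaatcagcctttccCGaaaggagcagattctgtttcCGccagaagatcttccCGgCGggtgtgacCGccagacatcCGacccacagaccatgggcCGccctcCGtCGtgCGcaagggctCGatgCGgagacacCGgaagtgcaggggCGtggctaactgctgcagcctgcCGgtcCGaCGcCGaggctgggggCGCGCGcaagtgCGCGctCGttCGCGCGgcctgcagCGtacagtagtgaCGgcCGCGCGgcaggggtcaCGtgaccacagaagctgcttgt

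**Figure D1:**
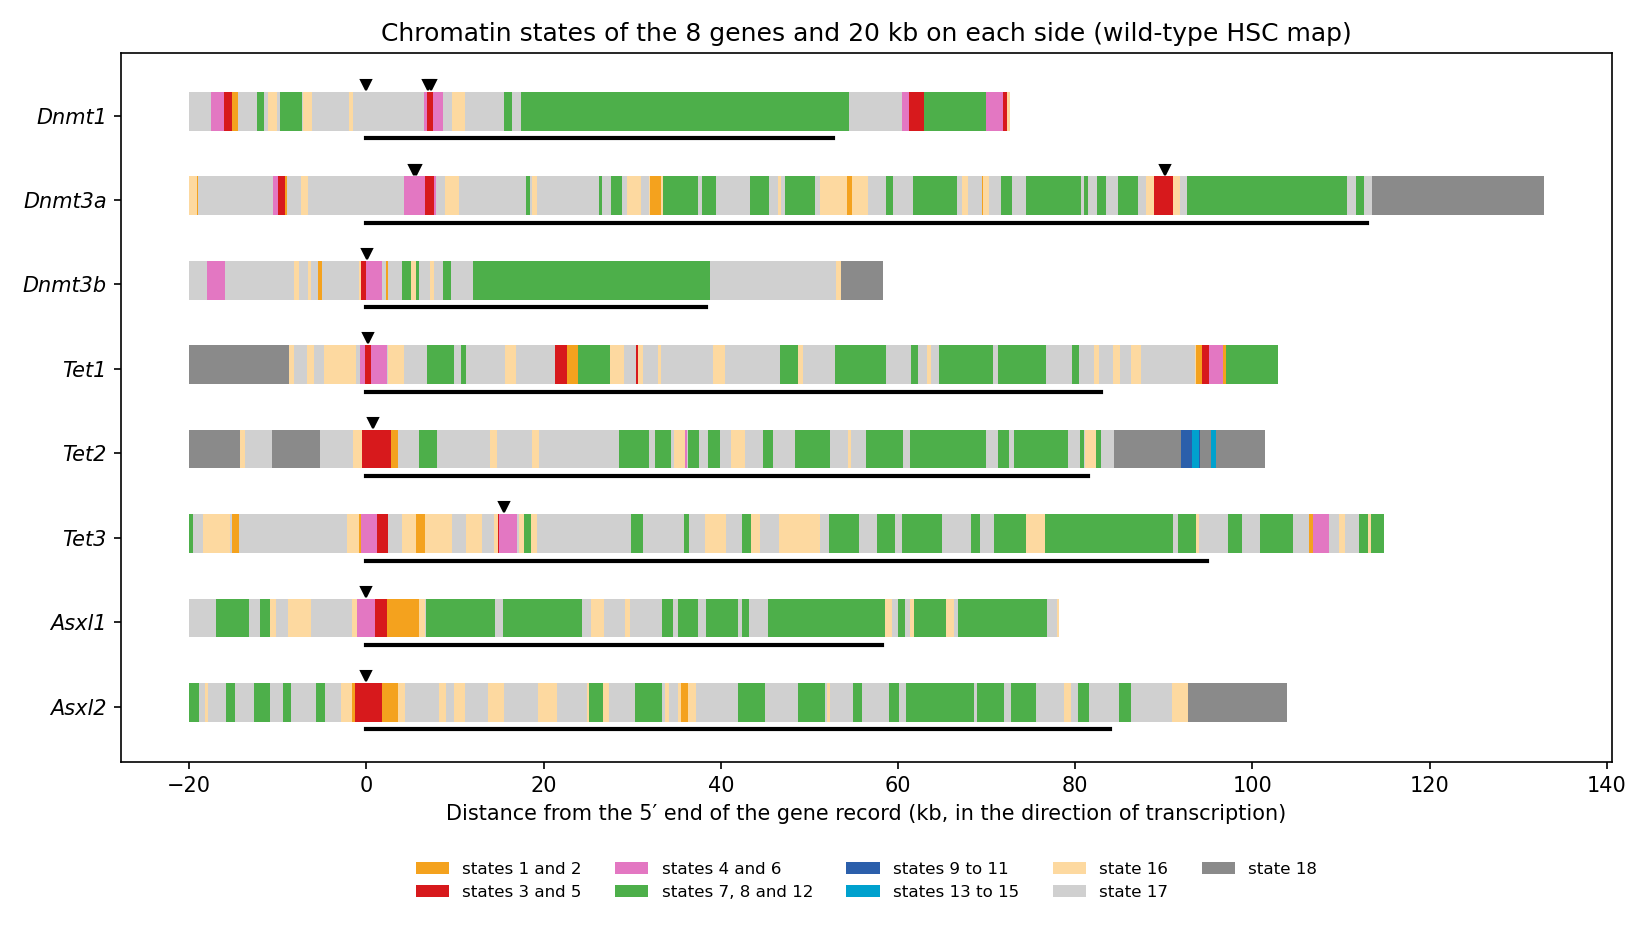
Chromatin states along the 8 genes, each drawn in the direction of transcription, with distance from the 5′ end of the gene record in kb on the horizontal axis. Black lines are the gene records and triangles the RefSeq starts. Red and pink (states 3 to 6) lie at 11 of the 12 starts, green (states 7, 8 and 12) covers more of the 3′ 50% of each record than of the 5′ 50%, and blue (states 9 to 11) is seen only beyond the 3′ end of Tet2.

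DNMT1 maintains methylation through cell division. The Dnmt1 record lies on chromosome 9, positions 20907206 to 20959888, minus strand. RefSeq lists 3 starts for it. The upstream start is the end of the record and lay in an 8.0 kb segment of state 17, with 2 CpGs in its promoter. The other starts lie 6.91 and 7.265 kb inside the record and shared a 0.4 kb segment of state 5, with 12 and 33 CpGs in their promoters. The run of states 3 to 6 around this pair was 2.2 kb long and read 6, 4, 5, 3, 4, 6 in the direction of transcription. Thus the record end of Dnmt1 carried no state of this group although internal starts did. Of the 17492 protein-coding genes with a listed start, 4.96% had a start in states 3 to 6 and no record end in them; Dnmt1 and Dnmt3a were the 2 such genes of the 8.

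DNMT3A establishes methylation and is the methyltransferase most often mutated in clonal hematopoiesis. Its record lies on chromosome 12, positions 3801559 to 3914443, plus strand, and both ends of it lay in state 17. Starts 5.42 and 5.6 kb inside the record lay in a single 1.2 kb segment of state 4. A further start, 90.2 kb inside the record, lay in a 1.0 kb segment of state 3. The 5′ run was 3.6 kb long (states 6, 4, 6, 5, 6), the longest start run among the 8 genes, and 9.89% of all start runs in the map were at least that long. The internal run was 2.2 kb long and held only states 3 and 5 (in the order 3, 5, 3, 5). Starts in 2 or more separate runs were seen in 1.3% of protein-coding genes with a listed start. Of the 8, only Dnmt3a was such a gene, but a gene with 1 listed start cannot qualify. Only Dnmt1 and Dnmt3a had more than 1. An 18 kb segment of state 8 began soon after the internal run, from 92.6 to 110.6 kb.

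DNMT3B, the other enzyme of this kind, is used chiefly in early development. Its record lies on chromosome 2, positions 153649411 to 153687730, plus strand. The start, 0.038 kb inside the record, lay in a 0.4 kb segment of state 6, in a 2.4 kb run of states 5, 3, 6, 4, 6. Its promoter held 30 CpGs. Dnmt3b therefore carried the same group of states at its start as Dnmt1 and Dnmt3a did.

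The TET genes differed in which of the 4 states they carried. Tet1 (chromosome 10, positions 62804570 to 62887469, minus strand) had its start, 0.145 kb inside the record, in state 3, within a 3.0 kb run of states 6, 5, 3, 4, 6 in which states 3 and 5 made up 20.0% of the length. Tet2 (chromosome 3, positions 133463677 to 133545136, minus strand) had its start, 0.746 kb inside the record, in a 1.4 kb segment of state 3, within a 3.2 kb run of states 3 and 5 only. Tet3 (chromosome 6, positions 83362373 to 83457208, minus strand) had its start 15.5 kb inside the record, in state 4, within a 2.2 kb run in which states 3 and 5 made up 9.09%. Tet2 and Tet3 thus stood at the opposite extremes of the 9 start runs on this measure. Tet2 shared its extreme with Asxl2 and the internal run of Dnmt3a. A 3.0 kb run across the 5′ end of the Tet3 record is not among the 9, since it holds no listed start. States 3 and 5 made up 1.2 kb of it, so the contrast depends on which Tet3 run is taken.

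The start of Asxl1 (chromosome 2, positions 153345830 to 153404007, plus strand) lay in a 1.0 kb segment of state 6, and the start of Asxl2 (chromosome 12, positions 3426857 to 3510811, plus strand) lay in a 3.0 kb segment of state 3. The run at Asxl1 was 3.4 kb long and changed from states 6 and 4 upstream to states 3 and 5 downstream (6, 4, 6, 4, 3, 5, 3). The run at Asxl2 was the single state 3 segment. Such a segment is uncommon: 54 of the 14160 state 3 segments in the map, 0.381%, were 3 kb or longer, and their median length was 0.6 kb. These paralogs thus had start runs of similar length and of different make-up.

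**Figure D2:**
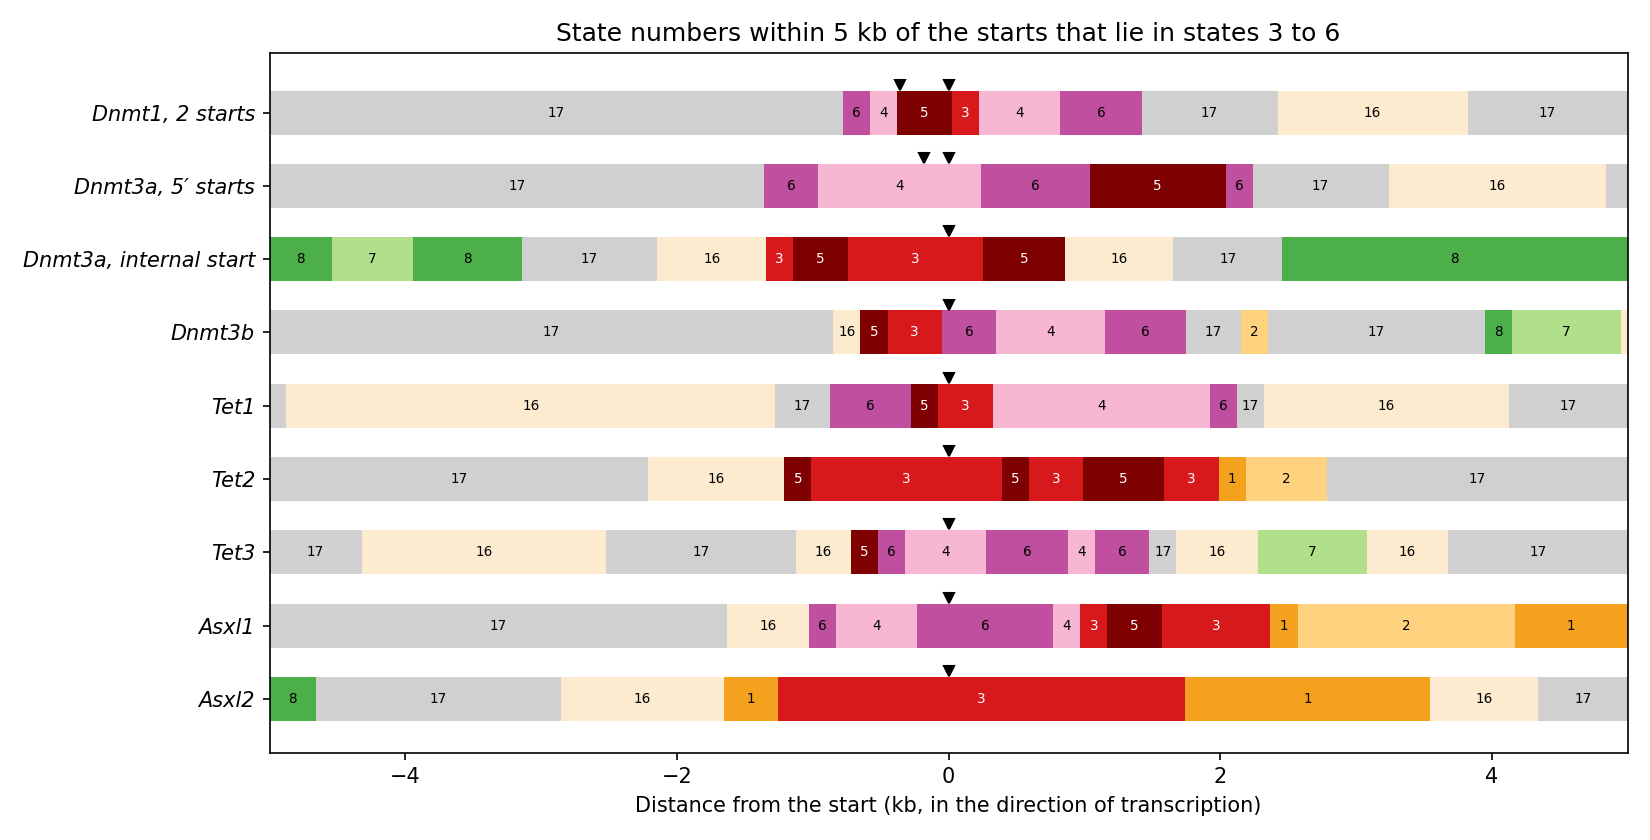
State numbers within 5 kb of the starts that lay in states 3 to 6, with distance from the start in kb in the direction of transcription on the horizontal axis and 1 row for each of the 9 runs. Colours and printed numbers give the state, and triangles mark starts. Asxl2 carries a single 3.0 kb block of state 3, Tet2 and the internal Dnmt3a run hold states 3 and 5 only, and the other rows mix all or most of the 4 states.

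Over the 9 start runs the median length was 3.0 kb (range 2.2 to 3.6), beside a median of 2.2 kb over the 8406 runs in the map that hold a protein-coding start. States 3 and 5 alone made up 3 of the 9 runs, those of Tet2, Asxl2 and the internal start of Dnmt3a, against a background of 18.5%. The other 6 also held states 4 and 6.

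The windows held 20 runs of states 3 to 6 in all, 18 of them 1 kb or longer. The 6 runs that were not at the 8 genes' own starts but held a start belonged to neighbours: S1pr2, Eif3g and Ppan around Dnmt1, Commd7 beside Dnmt3b, Ccar1 beside Tet1 and Bola3 beside Tet3. A further 3 of the 18 runs of 1 kb or longer held no start of the RefSeq promoter table, where over the map 34.3% of 13294 runs of that length held none. The other 2 runs, 0.2 kb each inside Tet1 and Tet2, held none either. Of the 20 runs of any length, 5 thus had no start, against 44.5% of 15998 in the map. All 8 windows were drawn around a gene with a start in these states, which lowers both shares by design. The first of the 3 longer runs lay on chromosome 12, positions 3791001 to 3792400. It lay at -10.6 to -9.16 kb from the 5′ end of the Dnmt3a record, read 6, 4, 3 and overlapped no gene record. The next lay inside Tet1, 21.3 to 22.7 kb from its 5′ end (chromosome 10, positions 62864801 to 62866200), read 5, 3 and was followed directly by 1.2 kb of state 1. One end of the record of the long non-coding RNA Gm51805 falls in it. The last was 3.0 kb long and lay across the 5′ end of the Tet3 record (chromosome 6, positions 83454801 to 83457800, states 4, 6, 4, 3, 5), where the table lists no start. Tet3 thus carried these states both at its record end and at the listed start 15.5 kb inside.

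The starts of Tet3, Asxl2 and Asxl1 lie close to another gene. The Tet3 start lies 77 bp from the divergent start of the long non-coding RNA B230319C09Rik, and both lay in state 4. The Asxl2 start lies 110 bp from the divergent start of the long non-coding RNA 1110002L01Rik, and both lay in state 3. The record of the long non-coding RNA 2500004C02Rik ends 20 bp before the Asxl1 start, in state 6 and inside the Asxl1 run; its strand is not listed. At this spacing a run cannot be assigned to either gene of the pair. The Tet1 start and its run lie inside the record of Gm51805, which has no listed strand or start. Inside Dnmt3a, the start of the non-coding gene Dnmt3aos lay in state 17 and that of Gm31623 in state 8, both outside the group. The Tet2 window held no other gene record.

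The CpG number of the promoters ran from 2 to 57. The printed Tet2 promoter held 57 CpGs in 300 bases with a GC share of 81.3%, and only 0.179% of 21263 protein-coding promoters held as many. The Dnmt3a 5′ promoters held 46 and 47 CpGs, a number reached by 2.1% and 1.83% of promoters. Asxl2 held 36, Dnmt3b 30, Tet3 22 and Tet1 17. At the low end of the genes with 1 start was Asxl1, with 13 CpGs and a GC share of 54.0%, a number that 50.9% of promoters reached. The internal Dnmt3a promoter held 18 CpGs in a GC share of 74.0%, so its ratio of observed to expected CpG was 0.47, beside 1.06 for the printed 5′ promoter.

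Over all protein-coding promoters the median was 22 CpGs for starts in states 3 to 6 (10693 promoters), 12 for states 9 to 11, 4 for state 17, 3 for state 16 and 2 for state 18. Of the 11 promoters of the 8 genes in states 3 to 6, 6 held more than 22. The upstream Dnmt1 promoter, in state 17, held 2, below the median of its state. The difference in CpG number between the Dnmt1 promoters, 2 against 33, thus went with a difference in state; that between Asxl1 and Tet2, 13 against 57, lay within states 3 to 6.

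**Figure D3:**
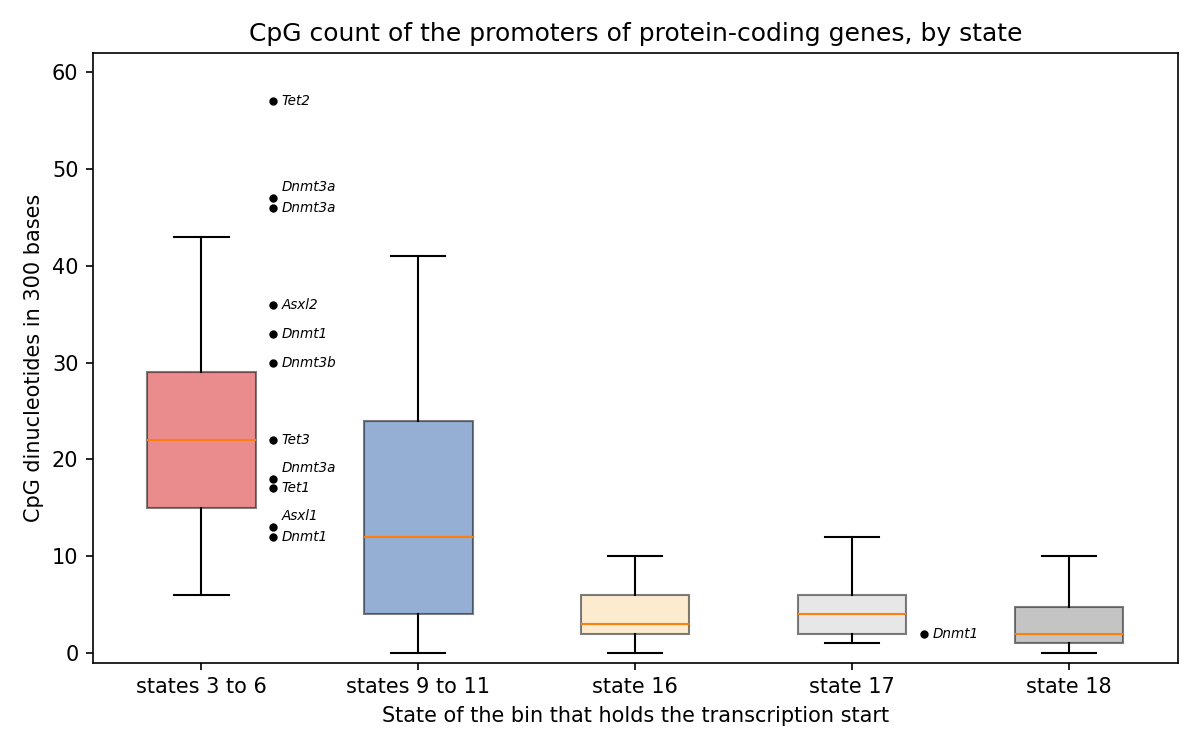
CpG dinucleotides per 300-base promoter of protein-coding genes, grouped by the state of the bin that holds the start. Boxes span the quartiles with the median as a line, whiskers the 5th to 95th percentile, and dots are the promoters of the 8 genes. Tet2, with 57, lies above the upper whisker for states 3 to 6, and the upstream Dnmt1 promoter, with 2, lies in state 17.

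The Tet2 promoter is also repetitive. Its longest exactly repeated stretch was 43 bases, a length reached by 0.216% of protein-coding promoters, where the median was 9. The same measure was 17 bases in Asxl1, a length reached by 4.03% of promoters. In Asxl1 it falls in a single unbroken stretch of A.

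Letters of known binding motifs were counted on both strands, as a description of the sequences. The SP/KLF box GGGCGG occurred in 10 of the 12 promoters, beside 46.2% of all protein-coding promoters and 68.0% of those in states 3 to 6. It was not found in the upstream Dnmt1 promoter or in the Dnmt1 promoter at 6.91 kb. The NRF1 core GCATGCG occurred in 3 promoters (both internal Dnmt1 promoters and Tet2), beside 4.44% of all and 7.00% of those in states 3 to 6. The ETS core CGGAAG and the RUNX core TGTGGT each occurred in Asxl1 and Asxl2 and in none of the other 10, beside 21.1% and 15.0% of all promoters and 34.6% and 11.6% of those in states 3 to 6. The NF-Y core CCAAT occurred in 3 (the upstream and downstream Dnmt1 promoters and Tet3; 38.2% of all and 38.5% of those in states 3 to 6), and the E-box CACGTG in 2 (internal Dnmt3a and Asxl2; 7.84% and 10.7%). The YY1 core AAGATGG occurred in 1 (Asxl1; 6.24% and 7.37%). Neither the GATA core AGATAA (9.65% and 5.6%) nor TATAAA (12.6% and 5.92%) was found in any of the 12.

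Counted over the whole window, states 3 to 6 covered 10.1% at Dnmt1, 5.70% at Tet1, 5.62% at Dnmt3b, 5.19% at Tet3, 4.71% at Dnmt3a, 3.46% at Asxl1, 2.80% at Tet2 and 2.42% at Asxl2. The median was 4.95%, beside 2.77% over all protein-coding genes and 2.53% over genes of similar length, and 7 of the 8 lay above the first of these. The high value of Dnmt1 came mostly from its neighbours. Of 9.4 kb in these states, 7.2 kb lay in the flanks, at S1pr2, Eif3g and Ppan. The share of the Dnmt1 record alone was 4.18%, a measure for which no background is given. Dnmt3b also had more of these states in its flanks (2.61 kb) than in its record (1.79 kb), and the remaining genes had less there. Within the records alone the most was at Dnmt3a, with 5.8 kb, and the least at Asxl2, with 1.74 kb.

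States 7, 8 and 12 were taken as a group and counted over the gene records. Over genes of similar length their median share was 14.8% of the record and 14.6% of the window. These medians show no general excess in records over flanks. Among the 8 genes, states 7, 8 and 12 covered 75.0% of the record of Dnmt3b, 68.7% of Dnmt1 and 64.3% of Asxl1. They covered 43.5% of Tet2, 43.4% of Dnmt3a, 36.7% of Tet3, 33.8% of Tet1 and 32.6% of Asxl2. The median of the 8 was 43.4%, against 0.0552% over all protein-coding genes and 14.8% over those of similar length. At the top, 4.95% of all genes had a share as high as Dnmt3b, and at the bottom 28.8% had one as high as Asxl2. Dnmt3b, Dnmt1 and Asxl1 were thus set apart from the other 5 by a gap of more than 20 percentage points. These 3 also had the shortest records, at 38.3, 52.7 and 58.2 kb, against 81.5 to 113 kb for the other 5.

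The same states were unevenly placed within the records. In all 8 genes they covered more of the 3′ 50% of the record than of the 5′ 50%, a direction seen in 55.6% of genes of similar length with a listed start, and in 81.6% of those that held any of these states. At Dnmt1 the shares were 37.4% in the 5′ part and 100% in the 3′ part, and at Dnmt3b 49.9% and 100%. At Tet3 they were 8.01% and 65.4%, and at Asxl2 11% and 54.2%. Asxl1 was the most even, with 57.8% and 70.8%. The medians were 23.7% and 64.4%, beside 5.28% and 20.7% over genes of similar length.

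**Figure D4:**
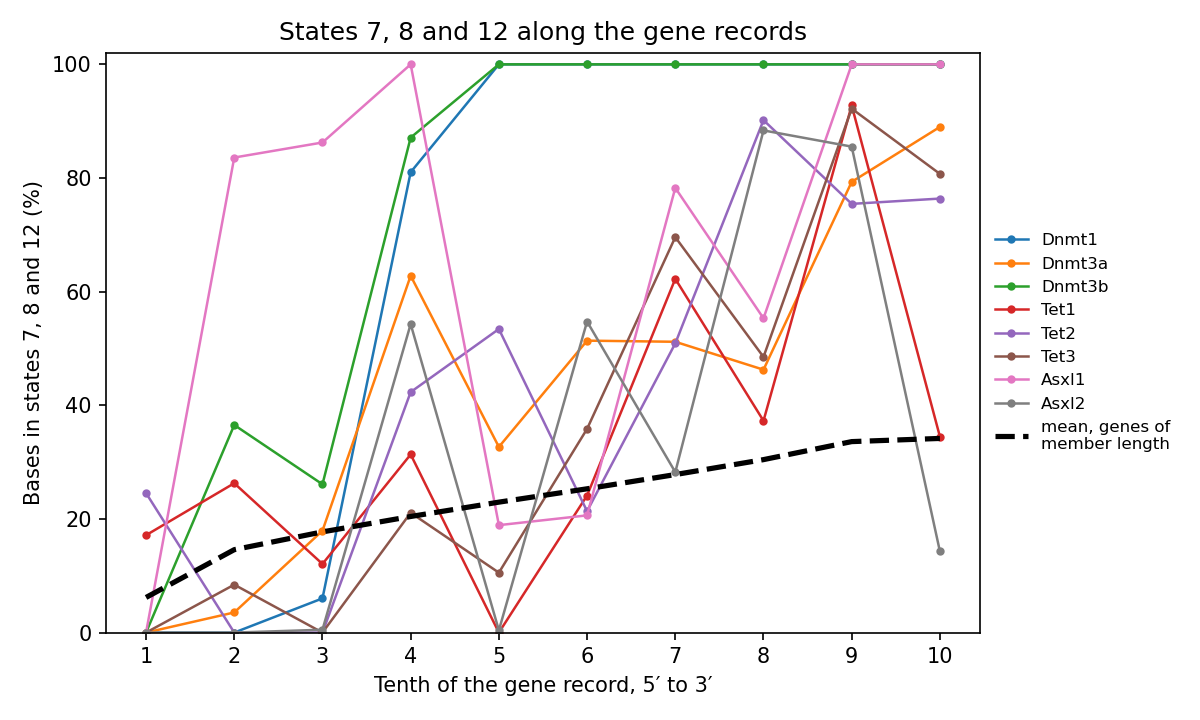
Share of bases in states 7, 8 and 12 in each 10% of the gene record, from 5′ to 3′. Coloured lines are the 8 genes, and the dashed line is the mean of 3310 genes of similar length with a listed start. Dnmt1 and Dnmt3b reach 100% by the fifth step and stay there, whereas Tet1 and Asxl2 fall again in the last step, to 34.5% and 14.3%.

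State 8 made up most of this coverage, often in long unbroken segments. The longest was 20.2 kb at Dnmt3b, a length reached by 0.684% of protein-coding genes. Dnmt1 had a pair of 18.2 kb segments parted by 0.6 kb, Dnmt3a 1 of 18 kb, Tet3 14.4 kb, Asxl1 11.8 kb, Tet2 8.6 kb, Asxl2 7.6 kb and Tet1 6.0 kb. Over genes of similar length the median of the longest segment was 2.8 kb, and 28.0% of them had one as long as that of Tet1.

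States 9 to 11, which hold 18.1% of protein-coding starts over the map, were nearly missing from the windows. Only Tet2 had any: 1.2 kb and 0.2 kb of state 11, at 91.9 and 93.9 kb from its 5′ end, which is beyond the 3′ end of the record. This is 1 of 8 windows, against 60.1% of all gene windows and 62.7% of those of genes of similar length. They made up 1.15% of the Tet2 window, where the median over all genes was 3.71%. With 50 kb on each side, 5 of the windows held some: 6.4 kb at Dnmt3a, 5.0 kb at Dnmt1, 2.2 kb at Tet3, 1.4 kb at Tet2 and 0.8 kb at Asxl2. At this width 74.9% of all gene windows and 77.0% of those of genes of similar length held some, so the count of 5 of 8 stands nearer to the background than the count at 20 kb does. Tet2 was also the gene with the largest share of state 18, the most common state of the map, at 21% of its window, with a median of 26.4% over all genes. Dnmt1, Tet3 and Asxl1 held none of state 18.

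State 1 was found in 6 of the 8 windows, all but those of Dnmt1 and Dnmt3b, where the background was 34.0% of gene windows and 44.7% of those of similar length. At Asxl1 and Asxl2 it adjoined the start run: a 3.6 kb stretch read 1, 2, 1 directly after the Asxl1 run, and 1.8 kb of state 1 followed the Asxl2 run, which also had 0.4 kb before it. Tet2 had 0.2 kb of state 1 directly after its run. In Dnmt3a it lay within the record, at 32.0 kb (1.2 kb long) and 54.2 kb (0.6 kb). In Tet3 it lay at 5.61 kb (1.0 kb), between the run at the record end and the listed start. States 1 and 2 together covered the largest share of the window at Asxl1 (3.67%) and the smallest at Dnmt1 (0.647%), with a median of 1.67% beside 0.315% over all genes.

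**Figure D5:**
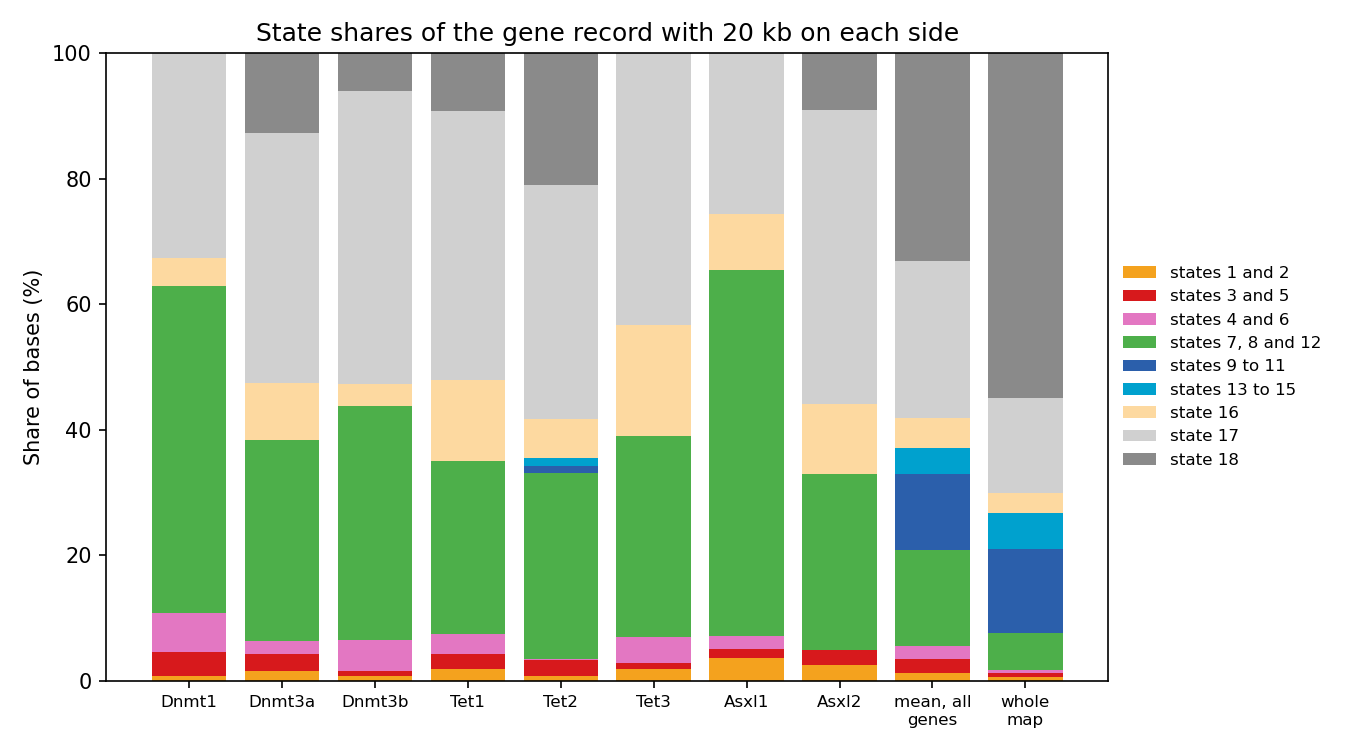
Shares of bases by state group in each gene record with 20 kb on each side, beside the mean over all protein-coding gene windows and the whole map. Each bar adds up to 100%. The 8 bars carry more of states 7, 8 and 12 (27.5 to 58.3%) than the mean window, and blue (states 9 to 11) is visible only in Tet2.

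The 8 windows were also compared with each other and with other genes by the overlap of their 18 state shares, which is 100% for identical make-up. Among the 28 pairs it ran from 62.5% (Tet2 and Asxl1) to 91.5% (Tet1 and Asxl2). Paralogs were not always the closest: Dnmt3a and Dnmt3b overlapped by 84.8%, Tet1 and Tet3 by 87.0%, Tet1 and Tet2 by 80.8%, Tet2 and Tet3 by 73.8%, and Asxl1 and Asxl2 by 64.6%, whereas Asxl1 and Dnmt1 overlapped by 86.3%. Of all protein-coding genes of 0.5 to 2 times the record length and over 1 Mb away, the closest were Rccd1 (97.2%) and Atg4b (96.0%) for Dnmt1, Trappc8 (95.5%) and Nnt (95.1%) for Dnmt3a, and Ift52 (94.9%) and Dcp1a (93.6%) for Dnmt3b. For the TET genes they were Pfkfb3 (95.3%) and Rcor1 (94.9%) for Tet1, Ppip5k2 (94.8%) and Fez2 (93.8%) for Tet2, and St3gal2 (95.6%) and Niban2 (94.1%) for Tet3. For Asxl1 they were Add1 (94.3%) and Srcap (93.6%), and for Asxl2 Ccdc6 (95.3%) and Wwc2 (94.8%). The median overlap with all the genes compared lay between 48.7% and 67.4%.

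Other genes of the same pathways were counted in the same way, by record ends in states 3 to 6. Of 35 further genes of DNA methylation and demethylation, 23 (65.7%) had one, among them Cxxc4, which encodes a CXXC-domain inhibitor of Wnt signalling that binds TET2, and Gadd45a, a stress-response gene, along with Cxxc1 and Cxxc5. The 12 without were D2hgdh, Dnmt3l, Dppa3, Idh2, Morc1, Piwil4, Prdm14, Smug1, Tcl1, Usp7, Zbtb38 and Zfp57. By listed starts, 23 of 26 had one in states 3 to 6, and the 3 without were Dnmt3l, Piwil4 and Tcl1. Of 11 partners and paralogs of the ASXL proteins, 10 (90.9%) had an end in these states, including Bap1, Foxk1, Foxk2 and Hcfc1, and the exception was Asxl3. Of 47 further genes mutated in clonal hematopoiesis or myeloid disease, 40 (85.1%) had one, including Atm, Bcor, Bcorl1 and Brcc3. The 7 without were Cebpa, Csf3r, Gnas, Kdm6a, Npm1, Rad21 and Wt1. By listed starts, 38 of 39 lay in the group, the exception being Cebpa, a myeloid transcription factor gene, whose start lay in state 9. The 3 shares by record ends compare with 47.6% of all protein-coding genes, and the counts by listed starts with 51.6% of those with a listed start. Ogt and Kdm1b belong to both of the first lists.

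The label of the cells was checked at marker genes in the same way, beside 47.6% of all protein-coding genes by record ends. Ends in states 3 to 6 were found at 6 of 7 HSC markers, 0 of 4 erythroid, 0 of 4 neutrophil and monocyte, 1 of 4 B cell, 0 of 4 T cell and 0 of 4 stromal and endothelial markers. The HSC marker without one was Ly6a, with both ends in state 17. By listed starts, 6 of 6 HSC markers had one in these states, against 51.6% of protein-coding genes with a listed start. So did 1 of 3 neutrophil and monocyte markers, Csf3r, and 1 of 4 T cell markers, Gata3. The counts were 0 of 3 for B cell, 0 of 2 for erythroid and 0 of 1 for stromal and endothelial markers. The B cell marker with an end in states 3 to 6, Ebf1, had its listed starts in states 9 and 11. The map holds no levels, so this describes states and not expression.

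Of the 8 genes, 2 pairs lie close together. Asxl1 and Dnmt3b are 245 kb apart on chromosome 2, with Nol4l and Commd7 between them, and Asxl2 and Dnmt3a are 291 kb apart on chromosome 12, with Dtnb between them. All 3 genes in between had an end in state 4. At the other protein-coding genes whose records reach into the windows, Kif3b, Mob1a, Bola3, Ppan, Eif3g, S1pr2 and Ccar1, an end also lay in states 3 to 6, so that all 10 such neighbours did, where the background over all protein-coding genes was 47.6%.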

How the data were processed

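Each deposited segment carries 1 state number, a label without counts, coverage or a score, and the file headers say that states are ordered by emission and that the track is for HSCs. Depth is unknown, so no interval is given. Tools listed by the submitters' processing notes, with no version, are Bowtie2, MACS2, HOMER and deepTools, for build mm10; the settings of the segmentation are not known here. The dense and expanded tracks held the same state in all 13634127 bins.

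Segments were expanded to 200 bp bins with Python 3.11.15, pandas 2.3.3 and numpy 2.4.6. Gene records, starts, strands and promoter sequences came from RefSeq (GRCm38.p6, the assembly of mm10); all 8 genes matched by symbol, with 12 starts, and the start table is not complete. Genes starting within the first 3 Mb of a chromosome other than Y were left out of the background. Every gene was counted alike: the states at both record ends, at listed starts, and the share of bases per state. Counting was tested on simulated segments. The 8 genes, the state groups, the marker and pathway lists were chosen with earlier results of these data known. All 8 members, all runs of 1 kb or longer, the 2 most similar genes, protein-coding neighbours, up to 12 list genes without an end in states 3 to 6 and the first 4 in alphabetical order with one were named; longest segments, paralog pairs and lists' start exceptions were named after their values were seen. Flank width, state grouping, single-bin segments, the deposited file used and the way ends are counted were varied.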

Additional observations from a re-analysis of the deposited data

How the results depend on the processing

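The expanded track gave identical values. The count of genes with a record end in states 3 to 6 was 6, and ranged from 5 (segments of 1 bin left out) to 8 (starts only, or any bin of the record). The pooled share of the windows in states 3 to 6 was 4.84%, and became 4.24% without segments of 1 bin, 4.18% with no flank, 2.18% for states 3 and 5 alone and 2.66% for states 4 and 6 alone. The pooled share in states 9 to 11 was 0.151%, and became 0% with no flank, 0% with 5 kb and 1.12% with 50 kb. The pooled share of the records in states 7, 8 and 12 was 45.8%, and became 35.8% with the flanks and 49.7% as the mean of the 8 shares. The share of states 3 to 6 at Dnmt1, 10.1%, became 4.18% with no flank and 3.51% with 5 kb. That at Dnmt3b, 5.62%, became 3.18% with 50 kb. Asxl1 went from 3.46% to 4.99% with 5 kb, the highest of the 8 at that width. With 50 kb, Tet2 went from 2.80% to 1.87% and Asxl2 from 2.42% to 1.63%. The order of the genes on this measure thus depends on the flank width. No paired analysis was possible because the map has no replicates. Depth is unknown, 1 map gives no spread, and the states are unnamed.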

Other observations

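Close relatives of the 8 genes did not all share their states. Dnmt3l, the paralog of the DNMT3 enzymes that lacks catalytic activity, had both record ends and all 3 listed starts in state 17. Asxl3 had record ends in states 9 and 18, with no base of states 3 to 6 in its window and 19% in states 9 to 11. By contrast, Dnmt3b, which is known mainly from early development, carried states 3 to 6 at its start and the longest state 8 segment of the 8 genes. The map holds no expression, and whether these differences go with transcript levels was not tested.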
